A study of Homo sapiens and Mus musculus with 24 samples.

Results

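Cholesterol is made from acetyl-CoA through the mevalonate pathway, and the genes of its enzymes are switched on by the sterol regulatory element-binding proteins (SREBPs) when sterols run low. The set of mRNAs described here holds 8 genes of that system, listed by name and taken with the same symbol in the human and the mouse files (symbols are in capitals for both species below). HMGCS1 makes HMG-CoA at the start of the pathway, FDFT1 (squalene synthase) forms squalene, SQLE oxidises it, LSS closes the ring to lanosterol, and DHCR7 catalyses a last step to cholesterol. SREBF1 and SREBF2 encode the SREBP precursors, and INSIG1 encodes an anchor that keeps those precursors in the endoplasmic reticulum. All 8 were found among the 58381 genes of the human files and the 53715 genes of the mouse files. The rule names the genes and uses no measured value, but it was drawn up with earlier results of these data known.

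The study sequenced RNA from 4 cell types: HepG2, a human hepatocellular carcinoma line; HEK293, a human embryonic kidney line that the study's methods call HEK293T; Neuro2a, a mouse neuroblastoma line; and HippCulture, primary hippocampal neurons cultured from E16.5 mouse embryos of the strain C57/BL6NCr and treated with AraC against glial cells. The 24 samples comprise 3 irradiated and 3 nonirradiated replicates per cell type, and the labels name no genetic change in any of them. In UPA-seq, UV light crosslinks RNA to bound proteins, crosslinked RNA goes to the interphase of a phenol-chloroform extraction, and the RNA left in the aqueous phase is sequenced. A lower value after UV irradiation is therefore read as lower recovery from the aqueous phase, relative to the other RNAs of that library. From qPCR and northern blots, the paper also proposes that the bonds made by UV hampered reverse transcription. A lower value can thus include poorer reverse transcription of RNA that was recovered, and "recovered less" below refers to the sequenced value only. The study calls its replicates biological, but the labels do not say whether they came from separate cultures, so p-values measure only the spread between these samples.

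Samples held 6910907 to 53511592 counts on genes, and those of HepG2 at least 36573473. UV irradiation changed the make-up of the libraries, and the 10 genes with the most counts held 9.4% to 32.4% of the counts in nonirradiated and 21.0% to 52.4% in irradiated samples. The TMM factors that correct for this were 1.098 to 1.592 in nonirradiated and 0.619 to 0.904 in irradiated samples. With library totals alone, the median log2 fold change over all genes tested became -1.38 for HepG2 (TMM: -0.08), -0.84 for HEK293 (TMM: -0.08), -1.32 for Neuro2a (TMM: -0.14) and -0.59 for HippCulture (TMM: -0.04). A change reported here is thus one against most other genes, and the place of a gene among the protein-coding genes tested is given beside the larger changes. The 6 hepatocyte markers were counted in HepG2, with a summed level of 4394 to 5897 RPKM (counts scaled by exon length and library total) in nonirradiated samples. In HippCulture the 6 neuronal markers summed to 858 to 936 RPKM and the 5 astrocyte markers to 122 to 141 RPKM without irradiation, with all 5 astrocyte markers above the filter on low counts. After irradiation these sums were 6739 to 7046, 573 to 730 and 90.8 to 115 RPKM. In nonirradiated Neuro2a, 5 of 6 sympathetic neuroblast markers (all but Gata3) passed the filter, with a sum of 65.6 to 68.9 RPKM. Of the 6 neuronal markers 4 passed there, all but Rbfox3 and Slc17a7, and the 6 summed to 307 to 359 RPKM. In nonirradiated samples the hepatocyte markers summed to at most 0.682 RPKM outside HepG2, where the mouse sums held 5 of the 6, as TF was not found under that symbol. Those of oligodendrocytes, microglia and endothelium summed to at most 6.59, 2.33 and 1.88 RPKM in any cell type.

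The genome windows upstream of the start sites of INSIG1, HMGCS1 and SREBF2 are shown because INSIG1 differed most between the human lines, HMGCS1 and INSIG1 were both recovered less in the mouse cells, and SREBF2 alone of the windows searched held the exact letters of a sterol element core. The sequences are RefSeq's for GRCh38.p14, 250 bases up to the start site, read 5′ to 3′ in the direction of the gene. Capitals mark matches on either strand to 3 motifs. The letters TCACCCCAC are the core of a sterol regulatory element, where the SREBPs bind. An E-box, which basic helix-loop-helix factors bind, reads CACGTG in its common palindromic form. The bound box of the factor NF-Y, read from the opposite strand, contains ATTGG as its letters. The INSIG1 window is chr7:155297628-155297877 on the plus strand, the HMGCS1 window chr5:43313413-43313662 on the minus strand and the SREBF2 window chr22:41832855-41833104 on the plus strand.
INSIG1: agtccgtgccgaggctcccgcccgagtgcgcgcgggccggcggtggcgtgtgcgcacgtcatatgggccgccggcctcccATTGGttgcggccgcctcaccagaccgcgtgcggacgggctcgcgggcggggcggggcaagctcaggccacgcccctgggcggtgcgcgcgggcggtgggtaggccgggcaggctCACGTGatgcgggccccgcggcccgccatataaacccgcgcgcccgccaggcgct
HMGCS1: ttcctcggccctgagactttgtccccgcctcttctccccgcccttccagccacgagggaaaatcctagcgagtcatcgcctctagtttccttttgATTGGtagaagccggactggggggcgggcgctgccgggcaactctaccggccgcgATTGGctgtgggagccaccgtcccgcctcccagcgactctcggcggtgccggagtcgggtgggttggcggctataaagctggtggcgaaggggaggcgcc
SREBF2: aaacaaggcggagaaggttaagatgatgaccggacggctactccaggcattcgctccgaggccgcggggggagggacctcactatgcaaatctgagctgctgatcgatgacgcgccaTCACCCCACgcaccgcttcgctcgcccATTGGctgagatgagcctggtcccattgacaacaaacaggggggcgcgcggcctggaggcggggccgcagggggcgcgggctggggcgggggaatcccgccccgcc

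Over windows that also took in the 50 bases after the start, 6 of the 8 human genes were matched to RefSeq promoters. The sterol element core was found in 1 of these 6 (SREBF2) and in 0.43% of all 35116 promoters. An E-box lay in the windows of INSIG1 and LSS, and in 7.26% of all promoters. ATTGG was found in DHCR7, HMGCS1, INSIG1, LSS and SREBF2, 5 of the 6, against 34.6% of all promoters. DHCR7 and HMGCS1 each had 2 windows and only 1 of them held it, which for HMGCS1 is the window shown. The counts out of 6 are thus by gene and the percentages by promoter, which are unlike units. These matches describe letters only, and the motifs did not overlap in the windows shown.

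The mRNAs were abundant in most cells before irradiation. Levels between genes were compared as RPKM in nonirradiated samples (mean ± SD, n = 3). RPKM divides by all exon bases annotated for a gene, which can far exceed the length of 1 mRNA. For mouse DHCR7 these were 5817 bases, where the transcript with the longest coding sequence holds UTRs of 87 and 143 bases and a reading frame of 1422. For human FDFT1 they were 5202, against 101, 361 and 1428. The orders of genes below hold for this length only and could differ with mRNA lengths. In HippCulture, HMGCS1 reached 315 ± 29.4 RPKM, above 99.8% of the protein-coding genes tested, and every sample lay above every sample of the next gene. INSIG1 (61.9 ± 3.86), FDFT1 (58.6 ± 1.53) and SQLE (54.9 ± 3.68) followed there in RPKM with overlapping samples. SREBF2, LSS, DHCR7 and SREBF1 were lower, at 24.7, 19.1, 12.1 and 11.6 RPKM, and only the last pair overlapped.

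Neuro2a had another order. SREBF1 was highest at 78.5 ± 4.17 RPKM, INSIG1 next at 45.4 ± 7.03 RPKM, and DHCR7 lowest at 3.27 ± 0.478 RPKM, under the median of 5.11 RPKM over protein-coding genes. SREBF2, HMGCS1 and SQLE lay at 32.2, 31.9 and 28.1 RPKM, with overlap between neighbours. LSS (12.6) and FDFT1 (12) also overlapped in RPKM.

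In HepG2, FDFT1 (31.2 ± 1.49 RPKM) and SQLE (31.1 ± 4.01 RPKM) led and overlapped, and HMGCS1 (21.7) and SREBF2 (21.6) overlapped below them. DHCR7 followed at 19.6 RPKM, with samples that overlapped those of HMGCS1 but not of SREBF2. LSS and SREBF1 came next at 12.7 and 10.9 RPKM without overlap. INSIG1 stood last at 0.0269 ± 0.0167 RPKM, whereas in HEK293 it stood first at 60.5 ± 2.74 RPKM. The rest of HEK293 ran from HMGCS1 (42.9 ± 7.50), FDFT1 (33.2), SQLE (24.5), DHCR7 (15.9), LSS (15.1) and SREBF2 (11.5) to SREBF1 (4.78 RPKM). There HMGCS1 overlapped FDFT1, DHCR7 overlapped LSS and LSS overlapped SREBF2.

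**Figure D1:**
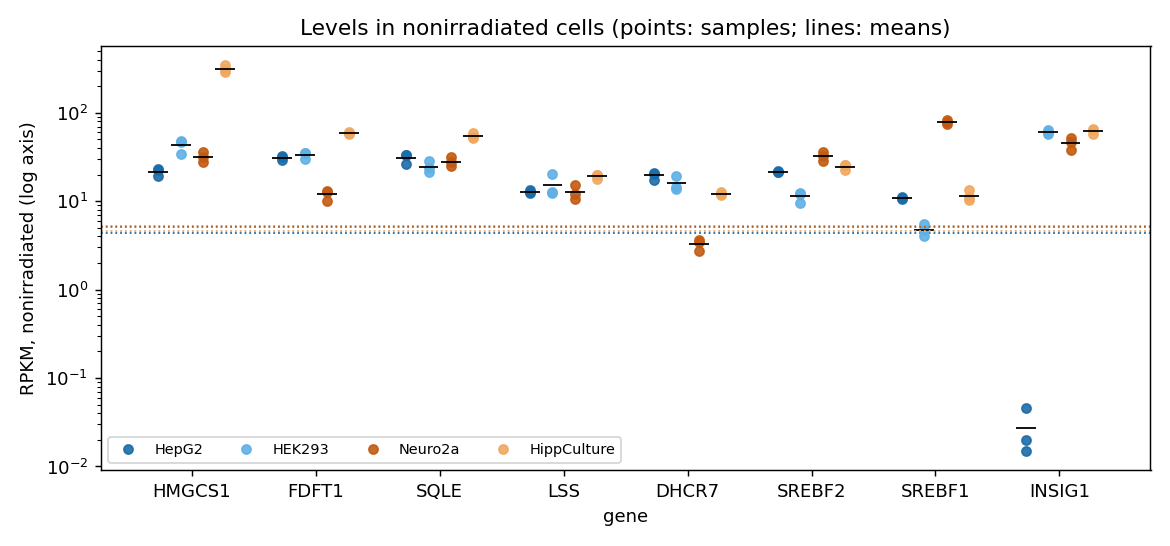
Level of each gene in the 3 nonirradiated samples of each cell type, as RPKM on a log axis; points are samples, short lines means, and dotted lines the median RPKM of the protein-coding genes tested in each cell type. HMGCS1 in HippCulture (315 RPKM) lies above the other levels, and INSIG1 in HepG2 (0.0269 RPKM) below them.

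Between the nonirradiated human lines, tested with edgeR's quasi-likelihood test and Benjamini-Hochberg adjustment over 23830 genes, 5 of the 8 mRNAs were higher in HepG2 and 2 lower. Over all genes tested, 37.6% were called higher and 38.1% lower. SREBF1 was higher in HepG2 by 1.62 ± 0.15 (log2 fold change ± SE, adjusted p = 2.2e-06) and SREBF2 by 1.36 ± 0.14 (adjusted p = 4.7e-06). SQLE (0.78), DHCR7 (0.74) and FDFT1 (0.35) were higher by smaller log2 fold changes, and HMGCS1 was lower, at -0.54. The FDFT1 call (adjusted p = 0.041) was lost without HepG2 replicate 2 or 3 or HEK293 replicate 3 (0.32, 0.34 and 0.28), and the HMGCS1 call without HEK293 replicate 2 (-0.41, adjusted p = 0.059). LSS did not pass the test, with a log2 fold change of 0.19 ± 0.20 (adjusted p = 0.40), but was called without HEK293 replicate 1 (0.49, adjusted p = 0.0023). HepG2 was sequenced on another instrument model and counted with another featureCounts version, so cell line and sequencing cannot be told apart in these differences.

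INSIG1 carried the largest difference between the human lines among the 8. Its counts were 2, 9 and 3 in nonirradiated HepG2 against 1991, 2199 and 2135 in HEK293, from libraries that were deeper in HepG2. The summed counts gave 0.106 CPM (counts scaled to a common total) in HepG2 and 221 CPM in HEK293, a ratio of 0.000481 with an exact 95% interval of 0.000263 to 0.000808 for counting error only. After irradiation the counts were 0, 0 and 3 in HepG2 against 744, 1677 and 1456 in HEK293, a ratio of 0.000174 (3.59e-05 to 0.000509). The fitted log2 fold change without irradiation was -10.53 ± 0.26 (edgeR, adjusted p = 2.9e-10). INSIG2, the related anchor gene, went the other way, with 32.5 ± 2.02 RPKM in HepG2 and 3.06 ± 0.692 RPKM in HEK293, a log2 fold change of 3.86 ± 0.18 (adjusted p = 6.7e-09).

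The genes around INSIG1 were then read in the same nonirradiated samples, a choice made after its counts were seen. INSIG1 lies at chr7:155297776-155310235 on the plus strand (hg38), and its exons share no base with another gene. The divergent lncRNA INSIG1-DT, whose start is at -0.2 kb on the other strand, had 0, 2 and 1 counts in HepG2 and 55, 69 and 40 in HEK293. PAXIP1, whose start lies at -294.7 kb from that of INSIG1, had 22.4 CPM in HepG2 and 47.7 in HEK293, and RBM33, at 346.7 kb, had 78.3 and 74.8. SHH, at 514.5 kb, had 10.5 CPM in HepG2 and 0.246 in HEK293, whereas EN2, at 160.4 kb, had 0 counts in HepG2 and 9.83 CPM in HEK293. The lncRNA BLACE, 70.2 kb after INSIG1, had 72, 61 and 57 counts in HepG2 and 0 in each HEK293 sample. On the other side, the lncRNA HTR5A-AS1, at -226.2 kb, had 34, 42 and 27 counts in HepG2 and 0 in each HEK293 sample. Between HTR5A-AS1 and BLACE, no gene but INSIG1 had over 2 counts in any nonirradiated HepG2 sample. The state of the locus in HepG2 was not tested.

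**Figure D2:**
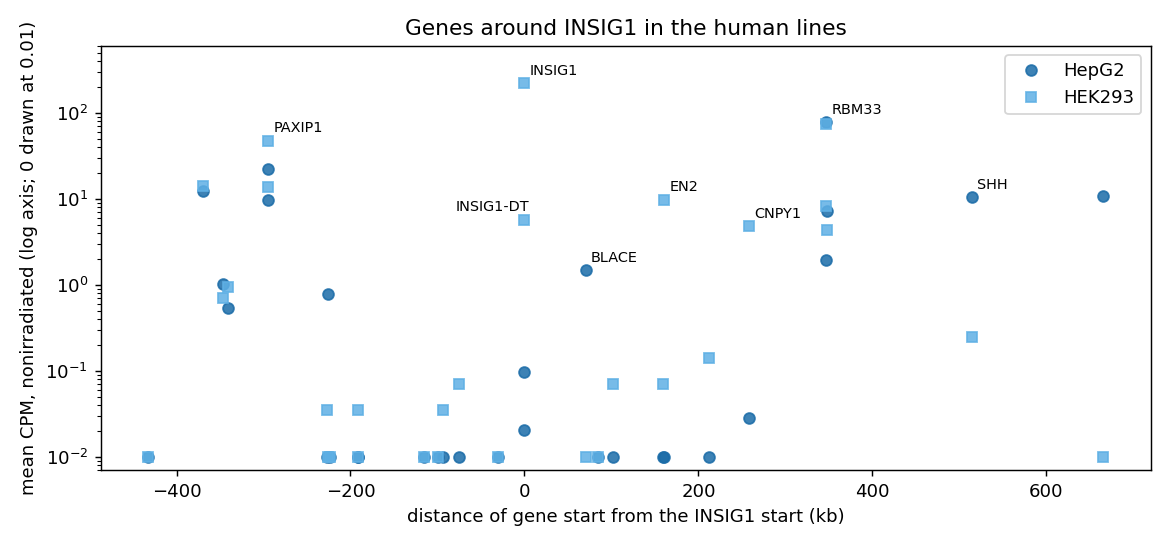
Mean CPM in nonirradiated HepG2 (circles) and HEK293 (squares) for genes starting within 700 kb of INSIG1, against the distance of each gene's start in kb; the vertical axis is logarithmic and 0 is drawn at 0.01. INSIG1 stands at 221 in HEK293 and 0.0983 in HepG2, whereas PAXIP1 and RBM33 lie above 20 in both lines.

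Between the nonirradiated mouse cells, 6 of the 8 mRNAs were lower in Neuro2a than in HippCulture and 2 higher, over 20940 genes tested, of which 41.4% were called lower and 39.0% higher. HMGCS1 differed most, with a log2 fold change of -3.44 ± 0.12 (edgeR, adjusted p = 5.4e-15), followed by FDFT1 at -2.43 ± 0.10 and DHCR7 at -2.03 ± 0.11. SQLE (-1.11), LSS (-0.74) and INSIG1 (-0.58) were lower by less. SREBF1 was higher in Neuro2a by 2.63 ± 0.09 (adjusted p = 4.7e-15) and SREBF2 by 0.25 ± 0.09 (adjusted p = 0.014). The SREBF2 call was lost without replicate 1 or 2 of either cell type (0.16 to 0.20) and with DESeq2's test (0.18, adjusted p = 0.10). Among the 15 other enzymes of cholesterol synthesis, 13 were lower in Neuro2a and 1 higher. The 5 astrocyte markers summed to 0.534 to 0.641 RPKM in Neuro2a and 122 to 141 RPKM in HippCulture, and their part in these differences was not tested. In such bulk samples fewer cells of a type and less RNA per cell cannot be told apart.

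Upon UV irradiation the 8 mRNAs did not move as a group. FDFT1 was recovered more in all 4 cell types, HMGCS1 and INSIG1 less in both mouse cell types, and SREBF2 had a log2 fold change between -0.17 and 0.21 in each. The numbers called differed between cell types and were read against the share of all genes called. In HepG2, 5 of the 7 tested mRNAs were called higher (38.1% of 20117 genes were) and 0 lower (40.7%). For that 0, 1 mRNA was lower at an unadjusted p under 0.05 (HMGCS1), and DESeq2's test called 1 lower. In HEK293, 1 of 8 was higher (24.2% of 20472 genes) and 0 lower (26.4%), with 0 lower at an unadjusted p under 0.05 and 0 by DESeq2's test. In Neuro2a, 1 of 8 was higher (28.9% of 17425 genes) and 2 lower (33.0%). In HippCulture, 3 of 8 were higher (26.1% of 18488 genes) and 3 lower (25.9%).

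The irradiated and nonirradiated samples did not overlap for 7 of 7 tested genes in HepG2, 1 of 8 in HEK293, 3 of 8 in Neuro2a and 8 of 8 in HippCulture. Over all genes tested, the groups did not overlap for 82.5%, 59.2%, 67.4% and 60.1% in the same order. Exact permutation tests of single genes (two-sided, 3 against 3 samples) cannot give a p under 0.1, which each of these reached.

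The replicate numbers paired the samples in HEK293 and Neuro2a, and a fit with that number as a block gave more calls there. In HEK293 the block gave 3 higher and 2 lower of 8, where it called 32.7% of all genes higher and 35.3% lower: DHCR7 (log2 fold change 0.41, adjusted p = 3.4e-05) and SREBF1 (0.23, adjusted p = 0.026) joined FDFT1, and HMGCS1 (-0.29, adjusted p = 0.0019) and SQLE (-0.34, adjusted p = 0.0011) were lower. In Neuro2a it gave 1 of 8 higher (30.7% of all genes) and 4 lower (34.6%), with SQLE (-0.25, adjusted p = 0.0019) and LSS (-0.21, adjusted p = 0.010) beside HMGCS1 and INSIG1. For HepG2, HEK293, Neuro2a and HippCulture, the median log2 fold changes of the tested mRNAs were 0.22, -0.10, -0.16 and 0.00, and those of all protein-coding genes tested 0.17, 0.01, -0.03 and 0.05.

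**Figure D3:**
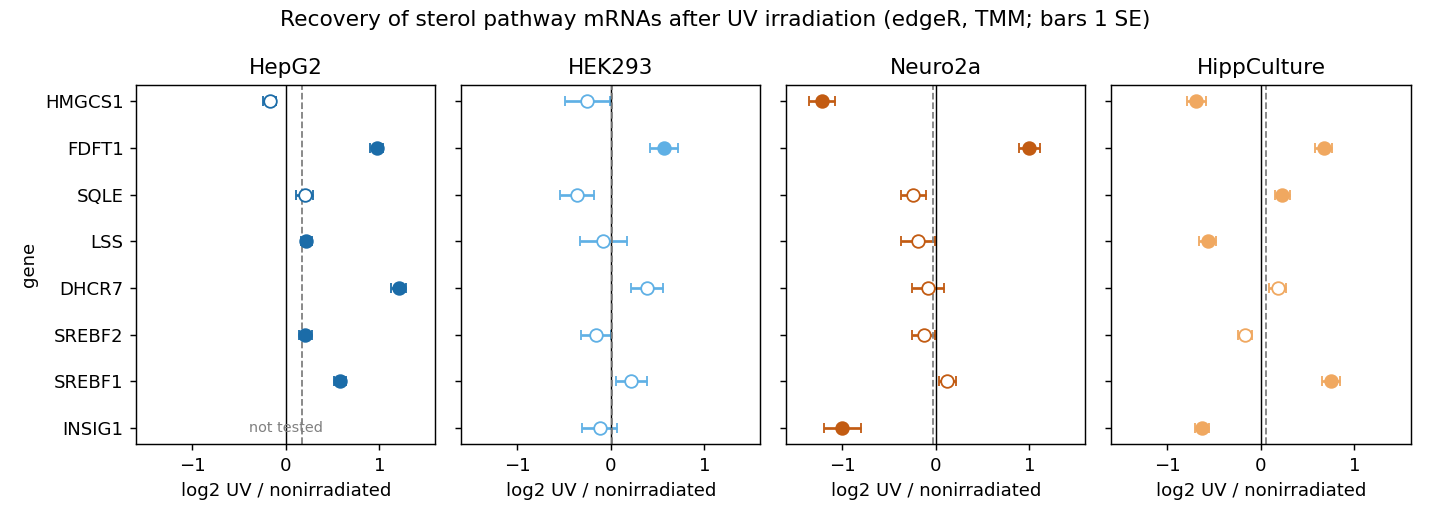
Log2 ratio of UV-irradiated to nonirradiated samples for each gene in each cell type (edgeR with TMM; bars are 1 SE; filled points have an adjusted p under 0.05; the dashed line is the median of protein-coding genes). FDFT1 lies right of 0 in all 4 panels (0.97, 0.57, 1.00 and 0.67), and HMGCS1 lies left of 0, farthest in Neuro2a (-1.22).

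HMGCS1, the synthase at the head of the pathway, was recovered less in the mouse cells. In Neuro2a its TMM-normalized CPM were 110.5, 94.8 and 85.4 without irradiation and 49.9, 33.7 and 40.6 after it. Every irradiated sample lay below every nonirradiated one, with a log2 fold change of -1.22 ± 0.14 (edgeR, adjusted p = 3.4e-06), and 13.6% of protein-coding genes had a lower value. In HippCulture the CPM were 1260.3, 1022 and 1303 without and 798, 697 and 733 with irradiation, again without overlap. The log2 fold change there was -0.69 ± 0.10 (adjusted p = 7.5e-06), with 12% of protein-coding genes below it. In HepG2 the CPM were 59.2, 66.9 and 68.5 against 58.6, 56.1 and 57.7, groups that did not overlap but gave a log2 fold change of -0.17 ± 0.07 (adjusted p = 0.057). This was called without the nonirradiated replicate 1 (-0.31, adjusted p = 7.9e-10) and by DESeq2's test (-0.24, adjusted p = 0.016). In HEK293 they were 129, 174 and 159 against 82.4, 167 and 138, where replicate 1 was lowest in both groups, and the log2 fold change was -0.25 ± 0.24 (adjusted p = 0.41). That fit did not pair the samples, and the replicate block called HMGCS1 lower in HEK293 (-0.29, adjusted p = 0.0019). The antisense lncRNA Gm48342 shares 12.12% of the mouse gene's exon bases, and its log2 fold changes were -0.81 in Neuro2a and -0.42 in HippCulture; reads in shared bases were counted for both genes, so the parts cannot be told apart. In human a lncRNA on the other strand shares 14.95% of the exon bases, with log2 fold changes of -0.73 in HepG2 and -0.40 in HEK293.

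INSIG1, whose protein holds the SREBPs back, was also recovered less in the mouse cells. In HippCulture the CPM were 155, 155 and 162 without irradiation and 101, 112 and 94.7 with it, and the groups did not overlap. The log2 fold change was -0.63 ± 0.08 (edgeR, adjusted p = 2.4e-06), and 14.1% of protein-coding genes had a lower value. In Neuro2a the CPM fell from 106, 94.8 and 77.7 to 67.2, 35.5 and 35.5, with replicate 1 highest in both groups and no overlap. The log2 fold change there was -1.0 ± 0.20 (edgeR, adjusted p = 0.0006), with 18.5% of protein-coding genes below it. In HEK293 the CPM were 168, 178 and 162 against 112, 194 and 161, overlapping groups with a log2 fold change of -0.12 ± 0.19 (adjusted p = 0.63). In HepG2 the gene was under the filter of 0.5 CPM and was not tested. INSIG2, named here after its values were seen, was lower in both mouse cell types, at -0.64 ± 0.21 in Neuro2a (adjusted p = 0.018) and -0.52 ± 0.16 in HippCulture (adjusted p = 0.011), and no call was made in the human lines. INSIG2 lost its call in Neuro2a without replicate 2 of either group, and in HippCulture without irradiated replicate 1.

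FDFT1, which commits the pathway to sterols, was the one gene of the 8 called higher in every cell type with TMM. The same held for 21.1% of the 9470 protein-coding genes tested in all 4 cell types. With library totals alone the log2 fold changes of FDFT1 were -0.34 for HepG2, -0.19 for both HEK293 and Neuro2a, and 0.11 for HippCulture. Of the protein-coding genes tested, 74.4%, 71.7%, 82.5% and 81.0% had lower log2 fold changes in HepG2, HEK293, Neuro2a and HippCulture. In HepG2 the CPM were 99.5, 105 and 105 without and 199, 199 and 206 with irradiation, a log2 fold change of 0.97 ± 0.07 (edgeR, adjusted p = 1.7e-06). In HEK293 they were 145, 140 and 113 against 194, 218 and 177, a log2 fold change of 0.57 ± 0.15 (adjusted p = 0.012). No irradiated sample overlapped a nonirradiated one in either line. In Neuro2a the CPM were 36.5, 35.5 and 28.6 against 73.3, 63.2 and 64.4 (log2 fold change 1.00 ± 0.11), and in HippCulture 202, 192 and 220.0 against 289, 364 and 324 (0.67 ± 0.09), also without overlap. In mouse, 18.31% of the gene's exon bases are shared with Ctsb on the other strand, whose log2 fold changes were 0.75 in Neuro2a and 0.57 in HippCulture, and the counting named no option for strand. In human, 4.17% are shared with an antisense lncRNA, whose log2 fold change was 1.46 in HepG2.

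The next enzymes of the pathway, SQLE and LSS, moved less. In HippCulture SQLE had 260.1, 229 and 264 CPM without and 278, 316 and 292 with irradiation, a log2 fold change of 0.23 ± 0.08 (edgeR, adjusted p = 0.026), which was lost without nonirradiated replicate 2 or irradiated replicate 2 or 3 (0.20, 0.18 and 0.24). It was also lost when every gene with a count was tested (0.20, adjusted p = 0.077) and with at least 10 counts in every sample (0.14, adjusted p = 0.13). LSS went the other way in the same cells, from 168, 168 and 175 to 107, 133 and 106 CPM, a log2 fold change of -0.57 ± 0.09 (adjusted p = 2.2e-05). Neither pair of groups overlapped. In HepG2 LSS had a log2 fold change of 0.22 ± 0.06 (adjusted p = 0.013), but the call was lost without nonirradiated replicate 2 or 3 or irradiated replicate 3 (0.16, 0.21 and 0.20), with DESeq2's test (0.15, adjusted p = 0.088) and under each of 3 other filters. In HEK293 LSS had -0.08 ± 0.25, and in Neuro2a -0.19 ± 0.18, and neither passed the test (adjusted p = 0.82 and 0.38). SQLE had 0.20 ± 0.09 (HepG2), -0.36 ± 0.18 (HEK293) and -0.24 ± 0.13 (Neuro2a), and none of these passed the test (adjusted p = 0.066, 0.12 and 0.14). These fits did not pair the samples. The replicate block called SQLE lower in HEK293 (-0.34, adjusted p = 0.0011) and Neuro2a (-0.25, adjusted p = 0.0019), and LSS lower in Neuro2a (-0.21, adjusted p = 0.01). In Neuro2a the irradiated replicate 1 held the highest value of its group for SQLE (108 CPM against 79.1 and 74.2) and LSS (108 against 63.7 and 63.4); without it both were called lower, at -0.45 (adjusted p = 0.0021) and -0.52 (adjusted p = 0.0038).

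DHCR7, the reductase of the last step, showed the largest rise in HepG2. Its CPM went from 47.3, 53.4 and 54.6 without irradiation to 124, 119 and 115 with it, with no overlap. The log2 fold change was 1.21 ± 0.08 (edgeR, adjusted p = 1.2e-06), above 81.0% of protein-coding genes. In HEK293 the CPM were 64.1, 47.0 and 41.9 against 69.5, 68.6 and 62.2, overlapping groups with a log2 fold change of 0.39 ± 0.17 (adjusted p = 0.083). Without the nonirradiated replicate 1 this was 0.59 (adjusted p = 0.0082), and with the replicate block 0.41 (adjusted p = 3.4e-05). In Neuro2a and HippCulture the log2 fold changes were -0.08 ± 0.17 and 0.18 ± 0.09, and neither passed the test (adjusted p = 0.70 and 0.10). The HippCulture value was called without nonirradiated replicate 3 (0.27, adjusted p = 0.041).

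Of the transcription factor genes, SREBF1 was recovered more in HepG2 and HippCulture. In HippCulture the CPM went from 49.4, 58.6 and 53.0 to 81.3, 104 and 87.4, without overlap. The log2 fold change was 0.75 ± 0.10 (edgeR, adjusted p = 1.9e-06), above 84.1% of protein-coding genes. In HepG2 it was 0.58 ± 0.06 (adjusted p = 3.9e-05), from CPM of 55.0, 54.8 and 56.6 to 86.4, 79.6 and 82.0. In Neuro2a, where the gene was most abundant, the CPM were 294, 305 and 278 against 297, 336 and 317, with a log2 fold change of 0.12 ± 0.09 (adjusted p = 0.29). In HEK293 it was 0.22 ± 0.17 (adjusted p = 0.31), from CPM of 35.2, 29.5 and 23.9 to 38.7, 33.2 and 31.3. The replicate block called SREBF1 higher there (0.23, adjusted p = 0.026). In HepG2 SREBF2 had 109, 101 and 102 CPM without and 122, 117 and 122 with irradiation, a log2 fold change of 0.21 ± 0.07 (adjusted p = 0.015). Its call there was lost without nonirradiated replicate 2 or 3 (0.17 each), without irradiated replicate 1 or 3 (0.20 each) and with DESeq2's test (0.14, adjusted p = 0.07). Each of the 3 other filters ended it too. In the other cells SREBF2 had -0.16 ± 0.16 (HEK293), -0.13 ± 0.12 (Neuro2a) and -0.17 ± 0.08 (HippCulture) on the log2 scale, and none passed the test (adjusted p = 0.44, 0.36 and 0.074). The HippCulture value was called without irradiated replicate 2 (-0.22, adjusted p = 0.022) and with the replicate block (-0.17, adjusted p = 0.035).

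**Figure D4:**
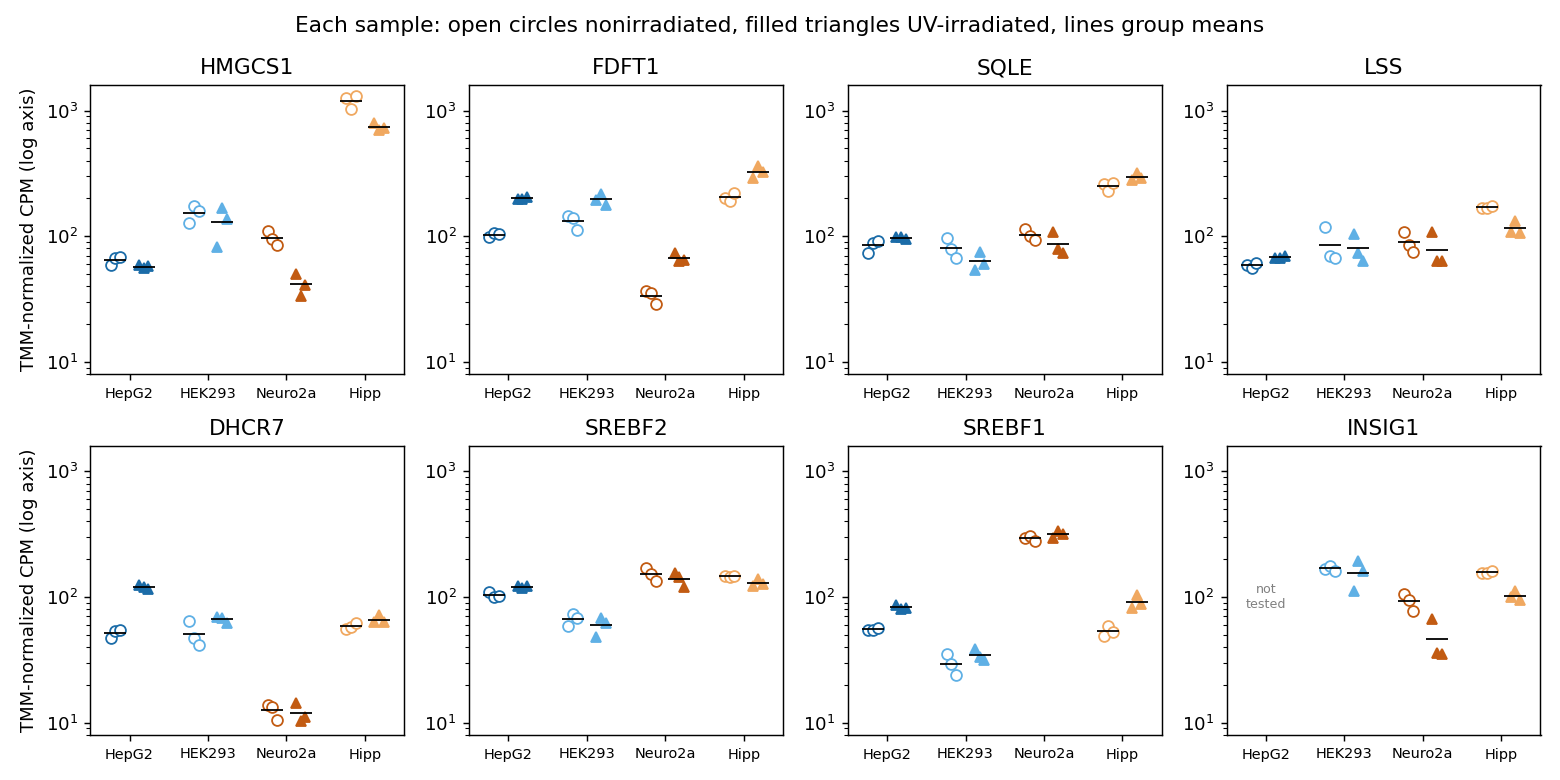
TMM-normalized CPM of each sample on a log axis, 1 panel a gene; open circles are nonirradiated and filled triangles UV-irradiated samples, lines group means, and Hipp stands for HippCulture. The triangles of FDFT1 lie above the circles in every cell type, and those of HMGCS1 in HippCulture and Neuro2a below them.

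Whether the effect of irradiation itself differed between cell types was tested as an interaction. Between the human lines, DHCR7 alone of 7 tested mRNAs differed, with a log2 fold change 0.71 ± 0.19 higher in HepG2 than in HEK293 (edgeR, adjusted p = 0.034); over 16759 genes 3.1% were called higher and 4.85% lower. None of the 7 was lower, by edgeR at an unadjusted p under 0.05 or by DESeq2's test. The DHCR7 call was lost in 8 of the 12 fits that left out 1 sample, with log2 differences of 0.53 to 0.82 over all 12. Between the mouse cells, 3 of 8 were called lower in Neuro2a and 0 higher, where 16.1% of 14973 genes were lower and 8.39% higher. These were SREBF1 (-0.64 ± 0.14, adjusted p = 0.0026), HMGCS1 (-0.54 ± 0.19, adjusted p = 0.042) and SQLE (-0.48 ± 0.17, adjusted p = 0.046). The median over all genes of this mouse comparison was -0.14, and with DESeq2's size factors 1 of the 3, SREBF1, stayed called. SREBF1 kept its call in each of the 12 fits without 1 sample (-0.71 to -0.55), whereas HMGCS1 lost it in 7 (-0.70 to -0.41) and SQLE in 10 (-0.66 to -0.37). None of the 8 was higher at an unadjusted p under 0.05 or by DESeq2's test. INSIG1 (-0.38 ± 0.23) and FDFT1 (0.32 ± 0.16) did not pass the test there (adjusted p = 0.24 and 0.14). With the replicate block, 4 were lower, INSIG1 among them (-0.41, adjusted p = 0.016), and 2 higher, FDFT1 (0.33, adjusted p = 0.035) and LSS (0.35, adjusted p = 0.022); the block called 20.3% of all genes lower and 12.4% higher.

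The other 15 enzymes of cholesterol synthesis were read from a fixed list. In HepG2, 12 were called higher and 1 lower; the same counts were 9 and 2 for HEK293, 6 and 4 for Neuro2a, and 7 and 4 for HippCulture. The shares of all genes called higher and lower were 38.1% and 40.7% for HepG2, 24.2% and 26.4% for HEK293, 28.9% and 33.0% for Neuro2a, and 26.1% and 25.9% for HippCulture. Counts from the same fit for every list below are read against these shares. They do not apply to counts with the replicate block or with library totals alone. For library totals alone no share of all genes is given, and the median over all genes was below 0 in each cell type. Counts in that setting are thus not read as results about a list. In Neuro2a 7 enzymes were lower without irradiated replicate 1, and in HEK293 1 was without nonirradiated replicate 1 or 2 or irradiated replicate 3. The median log2 fold changes of the 15 were 1.31, 0.88, 0.17 and 0.05, against 0.22, -0.10, -0.16 and 0.00 for the 8 mRNAs above; with library totals alone the counts higher were 5, 4, 2 and 4 and those lower 7, 5, 8 and 8. PMVK, the kinase that follows mevalonate kinase, had the highest value in the human lines, 1.92 ± 0.11 in HepG2 and 1.93 ± 0.14 in HEK293. MVK, mevalonate kinase itself, had the highest in the mouse cells, 1.63 ± 0.18 in Neuro2a and 1.16 ± 0.13 in HippCulture. At the other end stood LBR, a sterol reductase of the inner nuclear membrane, at -0.96 ± 0.08 in HepG2 and -1.41 ± 0.13 in HEK293. HSD17B7 had the lowest values in mouse, -2.43 ± 0.18 in Neuro2a and -1.21 ± 0.16 in HippCulture. In the human lines the same gene was called higher, at 0.81 in HepG2 and 0.88 in HEK293.

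A count of the 15 enzymes called one way in all 4 cell types was made after the values were seen. It gave 6 called higher, EBP, FDPS, MVD, MVK, PMVK and TM7SF2, and 1 called lower, LBR. Of 9470 protein-coding genes tested in all 4, 21.1% were called higher in each and 14.4% lower. FDPS, which makes the farnesyl diphosphate that FDFT1 uses, had log2 fold changes of 1.70, 1.28, 1.48 and 1.08 in HepG2, HEK293, Neuro2a and HippCulture. MVD, which makes isopentenyl diphosphate, had 1.68, 1.24, 1.36 and 0.98. LBR had -0.96, -1.41, -1.41 and -0.58 in the same order.

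The genes that process the SREBPs split in both directions. Of 4, the counts lower and higher were 1 and 1 for HepG2, 1 and 1 for HEK293, 2 and 0 for Neuro2a, and 2 and 1 for HippCulture; with the replicate block HEK293 had 2 lower. With library totals alone 4, 2, 4 and 3 were lower in these cell types and 0 higher. Single samples also moved the number lower, to 3 in HepG2 without nonirradiated replicate 1, to 1 in Neuro2a without replicate 2 of either group, and to 1 in HippCulture without irradiated replicate 1. The number higher in HippCulture was 2 without nonirradiated replicate 3. MBTPS2, the protease that releases the factor within the membrane, was the lowest called gene in HepG2 (-0.96 ± 0.22), HEK293 (-0.54 ± 0.15), Neuro2a (-1.68 ± 0.16) and HippCulture (-0.89 ± 0.13). Its HEK293 call was lost without nonirradiated replicate 2 or 3 or irradiated replicate 2 (-0.52, -0.52 and -0.47). SCAP, which carries the SREBPs to the Golgi, was called higher in HepG2 (0.61 ± 0.15), HEK293 (0.38 ± 0.13) and HippCulture (0.35 ± 0.09); the HEK293 call was lost when any of 5 of its 6 samples was left out.

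Of 8 fatty acid synthesis genes, 1 was lower and 3 higher in HepG2 (7 tested). The counts lower and higher were 2 and 1 for HEK293, 4 and 1 for Neuro2a, and 2 and 3 for HippCulture. With the replicate block they were 4 and 2 for HEK293, and with library totals alone 7, 6, 8 and 5 were lower in the 4 cell types and 0 higher. In HepG2 2 were lower without nonirradiated replicate 1. In HEK293 1 was lower without replicate 2 of either group, and 2 were higher without irradiated replicate 1. ACACA, acetyl-CoA carboxylase, was lowest in the human lines, at -0.81 ± 0.13 in HepG2 and -0.81 ± 0.15 in HEK293. FADS2, a fatty acid desaturase, was highest there, at 1.07 ± 0.09 and 0.48 ± 0.14. ELOVL6, an elongase, was lowest in Neuro2a (-1.51 ± 0.20) and HippCulture (-0.78 ± 0.11), and ACSS2, which makes acetyl-CoA, highest (0.32 ± 0.11 and 0.33 ± 0.12). The ACSS2 calls were lost with DESeq2's test (0.28 and 0.32, adjusted p = 0.096 and 0.06), without nonirradiated replicate 3 or irradiated replicate 2 in Neuro2a, and without nonirradiated replicate 1 or irradiated replicate 2 or 3 in HippCulture. That of FADS2 in HEK293 was lost without nonirradiated replicate 2 or 3 or irradiated replicate 2.

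Of 8 genes of sterol efflux, storage and export, 2 were lower and 3 higher in HepG2 (7 tested). For HEK293 the counts lower and higher were 2 and 3, for Neuro2a (7 tested) 4 and 3, and for HippCulture 1 and 2. In HEK293 the replicate block gave 4 lower, and 1 was lower without replicate 2 or 3 of either group. With library totals alone 4, 4, 5 and 5 were lower in the 4 cell types and 2, 2, 0 and 0 higher. NPC2, which binds cholesterol in the lysosome, was highest in HepG2 (1.73 ± 0.13), Neuro2a (1.30 ± 0.10) and HippCulture (0.82 ± 0.09), and NR1H3, a sterol-sensing receptor, in HEK293 (1.36 ± 0.19). ABCA1, a cholesterol exporter, was lowest in HepG2 (-1.07 ± 0.07). SOAT1, which esterifies cholesterol for storage, was the lowest called gene in HEK293 (-1.19 ± 0.13), Neuro2a (-1.65 ± 0.20) and HippCulture (-0.71 ± 0.13).

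**Figure D5:**
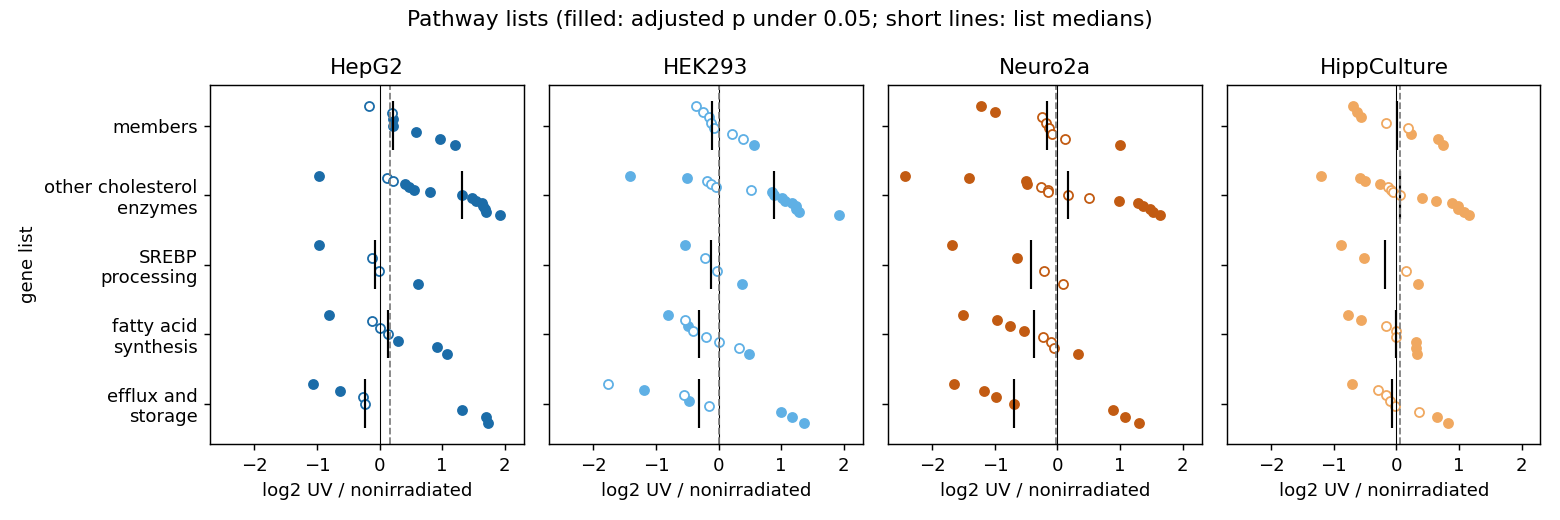
Log2 ratio of UV-irradiated to nonirradiated samples for the genes of each list in each cell type; filled points have an adjusted p under 0.05, short lines are list medians and dashed lines the median of protein-coding genes. The other cholesterol enzymes lie farthest right in HepG2 (median 1.31) and HEK293 (median 0.88).

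The 8 mRNAs also differed in the lengths of their parts, which the choice of genes did not use. On hg38, HMGCS1 lies at chr5:43289395-43313512 (minus strand), LSS at chr21:46188141-46228824 (minus), SREBF1 at chr17:17810399-17837002 (minus), SREBF2 at chr22:41833079-41907308 (plus) and DHCR7 at chr11:71428193-71452868 (minus). In human (GENCODE 44), the 3′ UTR was 3664 bases long in HMGCS1, longer than in 86.7% of protein-coding genes tested, 2661 in LSS and 1968 in INSIG1. It was 1648 in SREBF2, 957 in DHCR7, 552 in SREBF1, 361 in FDFT1 and 341 in SQLE. In mouse (GENCODE M21) it was 1785 bases in HMGCS1, 1845 in INSIG1, 2414 in LSS and 1603 in FDFT1. The other mouse lengths were 1465 in SREBF2, 836 in SREBF1, 278 in SQLE and 143 in DHCR7. The open reading frame was shortest in INSIG1, 831 bases in human and 777 in mouse, and longest in SREBF1, 3531 and 3402 bases. The medians over protein-coding genes were 1089 and 937 bases for the 3′ UTR.

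No single profile over the 4 cell types stood for all of the mRNAs. Measured by Euclidean distance over the 4 log2 fold changes, 7 of the 8 could be placed, all but INSIG1, and SREBF2 lay 0.19 from the profile of their medians, SQLE 0.36 and LSS 0.57, but SREBF1 0.93, DHCR7 1.12, HMGCS1 1.34 and FDFT1 1.67. Among 9463 other protein-coding genes tested in all 4 cell types, WDTC1 (0.10), POP1 (0.10), GSPT1 (0.11), AK3 (0.12) and ANKRD49 (0.12) lay nearest to that profile.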

How the data were processed

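RNA from the aqueous phase of 3 irradiated and 3 nonirradiated samples of each of 4 cell types was sequenced. The authors aligned reads with TopHat2 (2.1.1, per the labels) to hg38 or mm10 and counted them on genes with featureCounts, version 1.6.1 (HepG2: 1.5.3), and GENCODE 28 or M17. The deposited values are these raw read counts per gene, and, per the file headers, reads over several genes were counted for each and no strand option was set.

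From them, genes with a mean of at least 0.5 CPM in nonirradiated samples (in both cell types for the interactions, in either for the comparisons of nonirradiated cells) were tested with edgeR 4.0.16 (R 4.3.3; TMM, quasi-likelihood, Benjamini-Hochberg over all genes tested, threshold 0.05). The study's methods used DESeq2, here (1.42.0) an alternative. The other alternatives were DESeq2's size factors in edgeR, library totals alone, 3 other filters, leaving out each sample, and the replicate number as a block. The test was tried on simulated counts. Gene symbols, gene classes and the lengths of UTRs and reading frames came from GENCODE 44 or M21 (99.0% and 99.82% of gene IDs matched). Shared exon bases were found on the annotation used for counting. RPKM used the exon unions of that annotation and counts on genes.

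Replicate numbers come from the sample titles. Same-numbered samples deviated together in HEK293 (correlations 0.65, 0.37 and 0.46) and Neuro2a (0.29, 0.10 and 0.15), so the numbers were taken as pairs there. They were not taken as pairs in HepG2 or HippCulture. In HippCulture the correlations were weaker (0.14, 0.07 and 0.06) but above the mean between other numbers (-0.04), so pairing there is not excluded. The genes named are the 8 mRNAs and, per list and cell type, the called gene at either end; the 5 nearest genes were those with the smallest distance. One gene of the SREBP processing list is not reported here and enters none of its counts. The members and lists were chosen with earlier results of these data known. Intervals cover counting error only.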

Additional observations from a re-analysis of the deposited data

Results flagged for a closer look

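The effect of irradiation differed between cell types for 15 of the pathway genes named, each by edgeR's interaction term (adjusted p under 0.05). Those outside the 8 mRNAs were named for their changes upon irradiation in these same samples, so the 15 is not a count from an unselected set. Over all genes tested, the human interaction called 3.1% higher and 4.85% lower. For the mouse interaction these shares were 8.39% and 16.1%. DHCR7 was 0.71 higher on the log2 scale in HepG2 than in HEK293, and TM7SF2 0.70 higher. In Neuro2a against HippCulture, the log2 difference was -0.54 for HMGCS1, -0.48 for SQLE and -0.64 for SREBF1. Among the listed genes of the pathway it was -1.22 for HSD17B7, -1.07 for ABCA1, -0.95 for SOAT1, -0.83 for LBR, -0.79 for MBTPS2, -0.74 for ELOVL6, -0.61 for ACACA, -0.56 for FADS2, 0.64 for PMVK and 0.47 for NPC2. HSD17B7, SOAT1, LBR, MBTPS2 and ELOVL6 were lower after irradiation in both mouse cell types and further from 0 in Neuro2a, and PMVK and NPC2 were higher in both. ABCA1 (-1.17 and -0.11) and ACACA (-0.76 and -0.16) were called lower in Neuro2a and not called in HippCulture, and FADS2 (-0.23 and 0.32) was called higher in HippCulture and not called in Neuro2a.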

How the results depend on the processing

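Scaling mattered most. With library totals alone, the 8 mRNAs called lower upon irradiation numbered 6 (HepG2), 6 (HEK293), 7 (Neuro2a) and 5 (HippCulture) and those called higher 0 in each. The median over all genes tested also fell in that setting, to -1.38, -0.84, -1.32 and -0.59 in the same order. No share of all genes called is given for it, so these counts are not read as a result about the 8. The human interaction had 0 higher with library totals, the mouse interaction 6 lower, and nonirradiated HepG2 had 2 higher. Log2 values then turned sign in HepG2 for SQLE (-1.11), FDFT1 (-0.34), LSS (-1.09), SREBF1 (-0.73), SREBF2 (-1.09), DHCR7 (-0.10), SCAP (-0.69) and FADS2 (-0.24), in HEK293 for FDFT1 (-0.19), SREBF1 (-0.55), DHCR7 (-0.37), SCAP (-0.37) and FADS2 (-0.28), in Neuro2a for FDFT1 (-0.19), SREBF1 (-1.08) and ACSS2 (-0.87), and in HippCulture for SQLE (-0.32), DHCR7 (-0.38), SCAP (-0.21) and ACSS2 (-0.23). So did the human interactions of FDFT1 (-0.14), LSS (-0.24), SREBF1 (-0.18) and SREBF2 (-0.18), the mouse ones of FDFT1 (-0.31), LSS (-0.25) and SREBF2 (-0.59), and nonirradiated FDFT1 (-0.09) and LSS (-0.25) in the human lines. With DESeq2's size factors or test, HepG2 had 1 lower and 3 higher, the mouse interaction 1 lower and nonirradiated Neuro2a 1 higher. Testing every gene with a count gave 3 higher in HepG2, 4 lower in Neuro2a, 0 higher in the human interaction, and -0.05 for SREBF2 in the mouse interaction. At least 10 counts in every sample gave 1 lower and 3 higher in HepG2, 1 lower in HEK293, 1 lower in nonirradiated HepG2 and 1 higher in nonirradiated Neuro2a, and turned SQLE (-0.07), LSS (-0.06) and SREBF2 (-0.06) in HepG2 and SREBF1 (-0.02) in Neuro2a; a mean of 0.5 CPM over all samples gave 1 lower and 3 higher in HepG2. The cause was not tested.

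The replicate block gave 2 lower and 3 higher in HEK293, 4 lower in Neuro2a and 2 higher in the mouse interaction, and turned HMGCS1 in the human interaction (0.02). Over all genes it moved the calls from 10367 to 13916 in HEK293, from 10779 to 11388 in Neuro2a, from 15849 to 15731 in HepG2, from 9613 to 10020 in HippCulture, from 1332 to 3535 in the human interaction and from 3667 to 4893 in the mouse interaction. In HepG2 and HippCulture the numbers were not taken as pairs (correlations -0.02 to 0.01 and 0.06 to 0.14), though pairing in HippCulture is not excluded. With the block SREBF2 lost its call in HepG2 (0.21, adjusted p = 0.051) and gained one in HippCulture (-0.17, adjusted p = 0.035). FDFT1 between nonirradiated human lines lost it (0.36, adjusted p = 0.06).

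Leaving out 1 sample gave 0 to 1 lower and 3 to 5 higher in HepG2, 0 to 0 lower and 1 to 2 higher in HEK293, 2 to 4 lower and 1 to 1 higher in Neuro2a, and 3 to 4 lower and 2 to 4 higher in HippCulture. The human interaction had 0 to 0 lower and 0 to 1 higher, the mouse one 1 to 4 lower and 0 to 0 higher, nonirradiated HepG2 1 to 2 lower and 4 to 6 higher, and nonirradiated Neuro2a 6 to 6 lower and 1 to 2 higher. Some uncalled values changed sign without 1 sample: LSS (-0.29 to 0.24) and INSIG1 (-0.28 to 0.08) in HEK293, DHCR7 in Neuro2a (-0.26 to 0.01), HMGCS1 (-0.26 to 0.20) and LSS (-0.10 to 0.40) in the human interaction, and SREBF2 in the mouse one (-0.04 to 0.14). The 7449341 counts of the shallowest Neuro2a sample limit small differences of DHCR7 there, with 50 to 182 counts a sample.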
